A study of Mus musculus with 2 samples.

Results

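The genes described here encode the folding, quality-control and stress machinery of the endoplasmic reticulum (ER), read in pooled RNA of mouse distal colon with and without a transgene for the cytokine interleukin-9 (IL-9). They are 38 named genes, taken as every probe set whose platform annotation gives 1 of those gene symbols, out of 12393 genes with a single-symbol probe set on the Affymetrix array. All 38 were found, Ero1l under its current symbol Ero1a, through its gene ID. Both groups were bred under specific pathogen-free conditions: wild-type FVB mice, with no transgene, and IL-9 transgenic mice, titled Tg5, that carry a transgene for IL-9. RNA from a piece of distal colon of 4 mice was pooled for each genotype and hybridised to 1 array, so the study has 2 arrays and no replicate of either group. The promoter that drives the transgene, the age of the mice and their sex are not given in the sources used here. The strain background of the transgenic line is given only through the series design, which sets it beside wild-type mice.

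Secretory cells pass mucins, antibodies and hormones through the ER, where chaperones and oxidoreductases fold them and a degradation system removes what stays misfolded. When unfolded protein accumulates, the membrane sensors IRE1 (gene Ern1), PERK (gene Eif2ak3) and ATF6 start the unfolded protein response, which raises transcription of the folding genes through the factors XBP1, ATF6 and ATF4. In colon, goblet cells carry an especially large secretory load, and plasma cells of the lamina propria and exocrine pancreas cells are further textbook examples of ER-rich cells.

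Each value is a MAS5 intensity, a linear signal per probe set without unit, and each gene is read by its brightest probe set. Intensities under a floor of 19.8, the 40th percentile of non-control probe sets, were set to the floor, and a gene above it on at least 1 array was counted as measured, which held for 8346 genes. With 1 array a genotype there is no test, SD or p-value, and the ratio of the transgenic over the wild-type pool is a comparison of these 2 arrays only. The median intensity was 34.0 in the wild-type and 34.2 in the transgenic pool. As a check of the labels, Il9 (1450565_at) read 5.14 in the wild-type pool, below the floor, and 862 in the transgenic pool, at least 43.6-fold higher. Colon epithelial markers were present in both pools: 15 of the 16 listed genes were on the array and measured, and their median log2 ratio was −0.02. The wild-type pool stood apart in exocrine pancreas genes, whose summed intensity was 41050 there and 7214 in the transgenic pool. In the spread between probe sets of a gene, a technical measure without any spread between mice, the pooled SD of the log2 ratio was 0.28 over 2847 genes and 0.29 over the 17 members that allow it.

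Most ER genes lay slightly higher in the transgenic pool and none differed by 2-fold. Of the 38 genes, 36 were measured, all above the floor on both arrays, and the stress sensor gene Ern1 and the pseudokinase gene Trib3 were below it on both. The median log2 ratio over the 36 was 0.15, where all measured genes had a median of 0.04. Positive ratios were found in 25 of 36 (69.4%), against 56.0% of all measured genes. At 2-fold, 0 members were higher and 0 lower, where 0.767% and 0.611% of measured genes passed. At 1.5-fold only Sdf2l1 was higher and no member lower, where 4.09% and 2.85% of measured genes passed in those directions. Smaller thresholds were added once the values were known. At 1.3-fold, 10 members were higher (27.8%) and 1 lower (2.78%), against 11.4% and 8.03% of measured genes. At 1.2-fold, 14 were higher and 2 lower, against 19.8% and 14.5%. Among genes with a mean intensity of at least 100, 7 of 29 members were at least 1.3-fold higher, where 7.73% of such genes were, and 20 of 29 had positive ratios, where 58.4% of such genes did. The 38 genes together held 0.721% of the summed intensity of all genes in wild type and 0.804% in transgenic colon. In pooled tissue RNA, more or fewer cells of a type cannot be told apart from more or less RNA per cell.

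**Figure D1:**
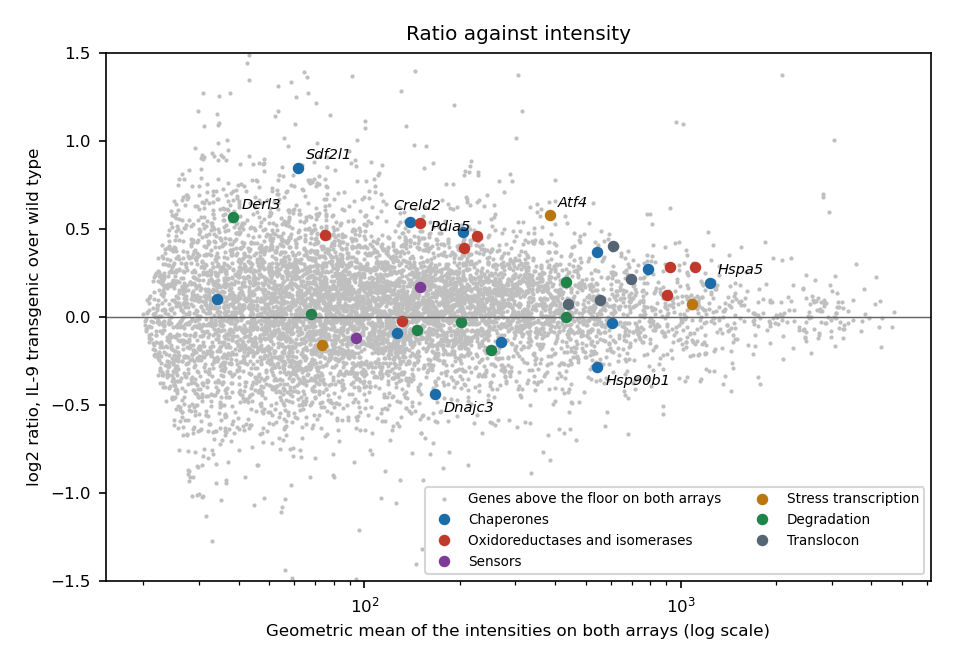
Log2 ratio of the transgenic over the wild-type pool (vertical axis) against the geometric mean of the intensities on both arrays (horizontal, log scale) for the 7770 genes above the floor on both arrays (grey) and the 36 measured ER genes (coloured by role). The axis ends at 1.5 in both directions, which leaves 14 grey genes out, and the coloured points run from −0.44 for Dnajc3 to 0.85 for Sdf2l1, with 25 of 36 above 0.

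Many ER genes are known for a shared promoter sequence, the ER stress element, to which ATF6 and XBP1 bind together with the factor NF-Y. Promoter windows from 250 bases before to 50 bases after the annotated transcription start were taken from RefSeq (GRCm38.p6), which held windows for 33 of the 38 genes; Atf6, Derl1, Hyou1, Manf and Sec61a1 had none. The ER stress element was searched as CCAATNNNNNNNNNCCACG and the ER stress element II as ATTGGNCCACG, on both strands. The UPR element was searched as TGACGTGG and the C/EBP-ATF element, bound by ATF4, as TGATGNAA, in the same way. A match shows that the letters are there, not that a factor binds, and no match shows only that these letters are not in the window.

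The ER stress element was in the windows of 9 of 33 ER genes (27.3%), against 37 of 27025 genes (0.137%) in the whole table and 14 of 6785 measured genes (0.206%). ER stress element II was in 2 of 33, Dnajb11 and Herpud1, against 12 of 27025 genes (0.0444%). The C/EBP-ATF element was in Herpud1 and Trib3, 2 of 33 (6.06%), against 4.51% of all genes, and the UPR element in 0 of 33, against 0.714%. Hsp90b1 carried 2 ER stress elements. The ER stress elements were searched because they are known from ER genes. Their higher share among the members was therefore likely in advance and is a description only. The following stretches show the matched letters, each read 5′ to 3′ along the gene's own strand. Capitals mark the element, with 15 bases on each side, and an element on the opposite strand appears as its reverse complement.
Hspa5 (chr2:34772010-34772058, + strand): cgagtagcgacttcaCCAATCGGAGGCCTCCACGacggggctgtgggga
Hsp90b1 upstream copy (chr10:86705623-86705671, - strand): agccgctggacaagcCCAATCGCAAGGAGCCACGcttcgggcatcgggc
Hsp90b1 downstream copy (chr10:86705518-86705566, - strand): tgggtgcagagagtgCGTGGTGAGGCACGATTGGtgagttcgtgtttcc
Calr (chr8:84847060-84847108, - strand): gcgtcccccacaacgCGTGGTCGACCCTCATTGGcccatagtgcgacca
Canx (chr11:50325785-50325833, - strand): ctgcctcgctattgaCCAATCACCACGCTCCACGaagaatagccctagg
Dnajc3 (chr14:118937812-118937860, + strand): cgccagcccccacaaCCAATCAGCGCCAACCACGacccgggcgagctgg
Creld2 (chr15:88819505-88819553, + strand): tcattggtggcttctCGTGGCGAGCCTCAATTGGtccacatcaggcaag
Pdia6 (chr12:17266476-17266524, + strand): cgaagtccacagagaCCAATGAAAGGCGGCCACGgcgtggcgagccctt
Derl3 (chr10:75893227-75893275, + strand): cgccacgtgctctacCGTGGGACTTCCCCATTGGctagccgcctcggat
Syvn1 (chr19:6046517-6046565, + strand): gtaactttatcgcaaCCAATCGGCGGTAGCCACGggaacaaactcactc
Herpud1 (chr8:94386362-94386402, + strand): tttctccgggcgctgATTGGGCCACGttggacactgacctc

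The gene's own strand carried the ER stress element in Hspa5, Canx, Dnajc3, Pdia6 and Syvn1. The opposite strand carried it in Calr, Creld2 and Derl3, and Hsp90b1 had a copy in each orientation. The elements lay between 212 bases before the start, for the upstream copy in Hsp90b1, and 26 bases before it, for Syvn1. The ER stress element II of Dnajb11 lay after the start, at bases 8 to 18.

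**Figure D2:**
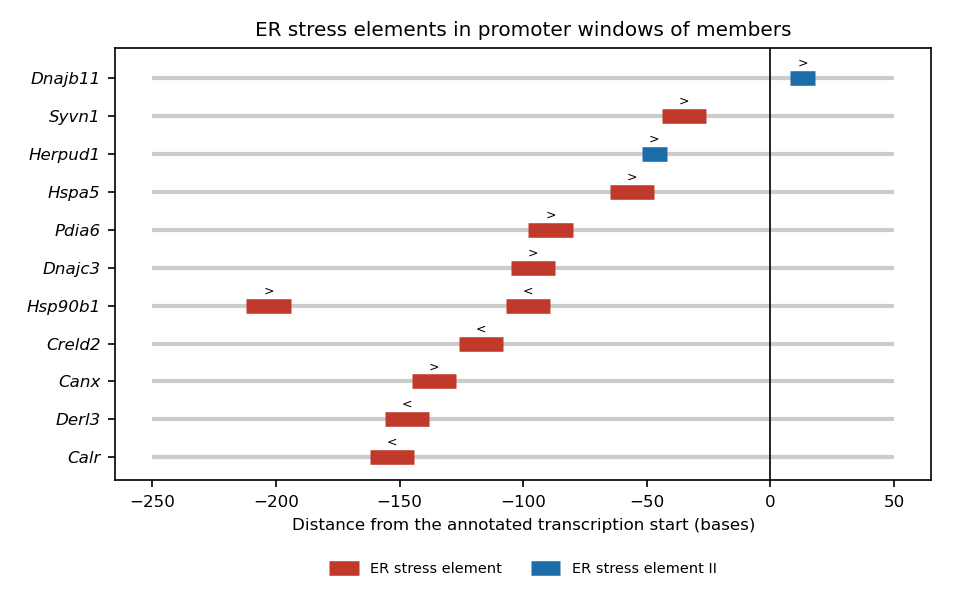
Position of each ER stress element (red) and ER stress element II (blue) in the promoter windows of the 11 ER genes that hold a match, as distance in bases from the annotated transcription start (vertical line at 0). The symbols > and < mark elements on the gene's own and on the opposite strand, and 11 of the 12 elements lie before the start.

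The genes with either ER stress element had ratios of both signs. Of the 11, 8 had positive ratios, where 56.0% of all measured genes did. The median log2 ratio of the 11 was 0.20 and the range ran from −0.44 (Dnajc3) to 0.57 (Derl3). The 20 measured genes with a window and neither element had a median of 0.11 and a range from −0.19 to 0.85. The ranges overlapped over most of their length, and Sdf2l1, the member with the largest ratio, had no match in its window.

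Chaperones and their partners had ratios of both signs. Of 12 genes, 7 had positive ratios (58.3%, against 56.0% of all measured genes) and 5 negative ratios. At 1.3-fold, 3 were higher (25%) and 1 lower (8.33%), against 11.4% and 8.03% of measured genes. The median log2 ratio was 0.15, or 0.07 when the probe sets of a gene were averaged. Sdf2l1, a component of ER chaperone complexes that works with the J-domain protein ERdj3, had an intensity of 45.8 in the wild-type and 82.4 in the transgenic pool, 1.80-fold higher. That log2 ratio of 0.85 exceeded those of 98.6% of measured genes. Creld2, a secreted ER stress-inducible protein, read 116 and 168 in the wild-type and transgenic pools, 1.45-fold higher. Dnajb11, which encodes ERdj3 and delivers clients to the chaperone BiP, read 173 and 242, 1.40-fold higher. Each of these 3 genes was read by a single probe set, so no second reading bears on its ratio. Manf, a stress-induced secreted factor that binds BiP, read 478 and 618, 1.29-fold higher.

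Chaperones of the lectin cycle, which hold glycoproteins until they are folded, differed little. Calr, the lectin chaperone calreticulin, read 717 in the wild-type and 866 in the transgenic pool, a log2 ratio of 0.27, and its other probe sets were at 0.19 and 0.21. Canx, its membrane-bound partner calnexin, read 615 and 599 by its brightest probe set, a log2 ratio of −0.04, and its other probe sets were at 0.18 and −0.22. Uggt1, the glucosyltransferase that marks misfolded glycoproteins for another round of calnexin binding, read 33.1 and 35.5. Canx and Uggt1 did not reach 1.2-fold, while all 3 probe sets of Calr were positive.

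Hspa5, the gene of BiP, and Hsp90b1, the gene of the ER Hsp90 protein GRP94, gave opposite readings by probe set. The brightest probe set of Hspa5 (1416064_a_at) read 1154 in the wild-type and 1320 in the transgenic pool, a log2 ratio of 0.19. The other (1427464_s_at) read 536 and 345, a log2 ratio of −0.63. For Hsp90b1 the brightest probe set (1415889_a_at) read 599 and 493, a log2 ratio of −0.28, and the other (1438040_a_at) read 283 and 367, or 0.37. No direction can therefore be given for either gene from these arrays, although both are classical targets of the unfolded protein response and carry the ER stress element shown above.

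Co-chaperones had ratios of both signs. Dnajc3, Dnajb9 and Hyou1 read lower in the transgenic pool, while Dnajb11 and Sil1 read higher, with log2 ratios of 0.48 and 0.66. By brightest probe set, Dnajc3 was at least 1.2-fold lower, and Dnajb9 and Hyou1 were not. Dnajc3, a J-domain protein and known inhibitor of PERK, read 195 in the wild-type and 144 in the transgenic pool, 1.35-fold lower. It was lower by 4 of its 5 measured probe sets, whose log2 ratios ran from −0.44 to 0.08. Dnajb9, the J-domain protein ERdj4, read 283 and 257, a log2 ratio of −0.14. Hyou1, a large Hsp70-related chaperone and nucleotide exchange factor of BiP, read 131 and 123 by its brightest probe set, a log2 ratio of −0.09. A dimmer probe set of Hyou1 (1423290_at) read 43.4 and 24.1, a log2 ratio of −0.85, so the size of its difference depends on the probe set while the sign does not.

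**Figure D3:**
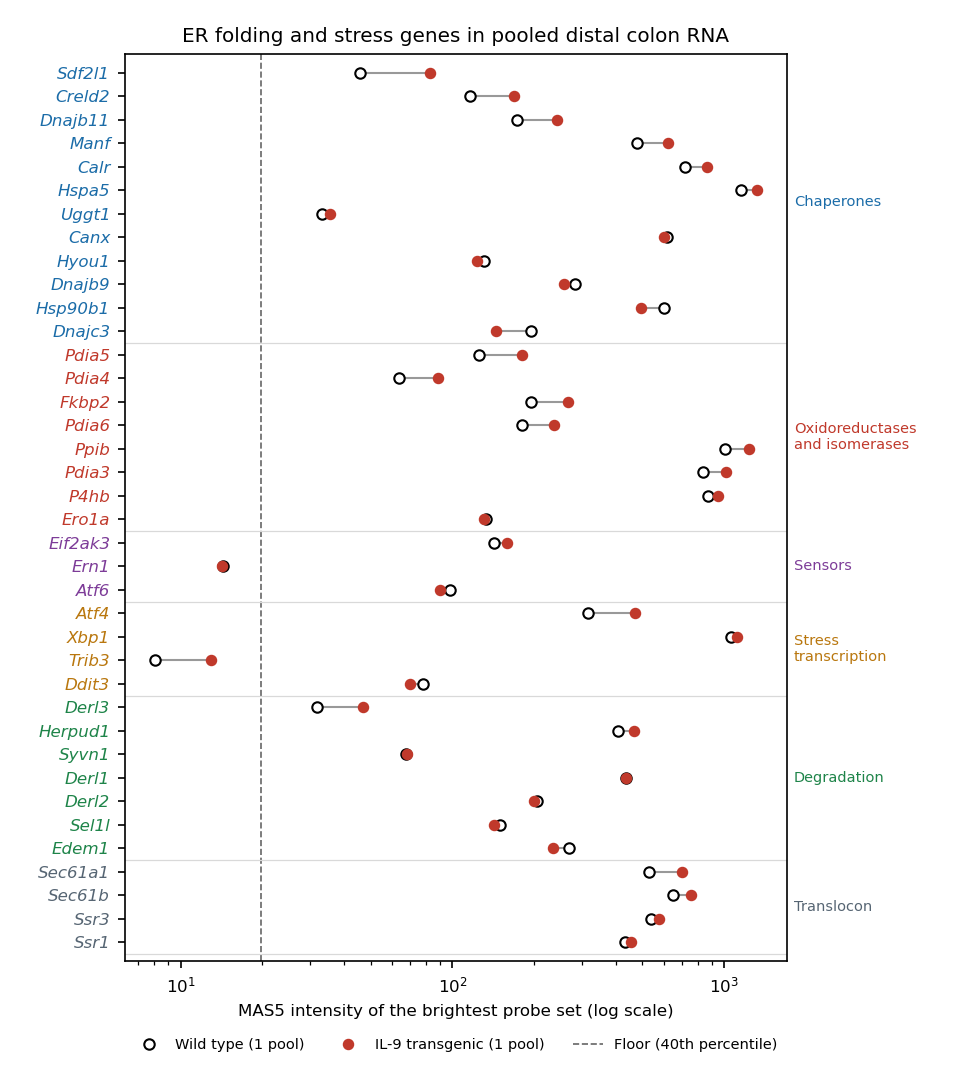
MAS5 intensity (log scale) of the brightest probe set of each of the 38 ER genes in the wild-type pool (open circles) and the transgenic pool (red), ordered within each role by ratio; the dashed line is the floor of 19.8. Sdf2l1, Creld2, Dnajb11, Pdia5, Pdia4, Fkbp2, Atf4 and Derl3 show the widest upward gaps among measured genes, Dnajc3 the widest downward gap, and Ern1 and Trib3 lie under the floor in both pools.

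Oxidoreductases and prolyl isomerases were the role group with the highest median, 0.34 on the log2 scale over 8 genes. Of these, 7 were positive (87.5%, against 56.0% of all measured genes) and 4 at least 1.3-fold higher (50%, against 11.4%). Pdia5, a protein disulfide isomerase also known to act on ATF6, read 125 in the wild-type and 181 in the transgenic pool, 1.45-fold higher. Pdia4, another isomerase of the family, read 63.9 and 88.1, 1.38-fold higher. Fkbp2, a prolyl isomerase of the FK506-binding family, read 194 and 267, 1.38-fold higher. None of these 3 differences reached 1.5-fold, and each rests on a single measured probe set.

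Pdia6, an isomerase that restrains IRE1 and PERK signalling, read 180 in the wild-type and 237 in the transgenic pool, 1.31-fold higher. The other isomerases of the group had smaller positive ratios: Pdia3, the isomerase that works with calnexin and calreticulin, read 837 and 1017, Ppib, cyclophilin B, read 1008 and 1228, and P4hb, the founding protein disulfide isomerase, read 870 and 947. Their log2 ratios were 0.28, 0.28 and 0.12. Ero1a, the oxidase that recharges the isomerases, read 133 and 131 by its brightest probe set, a log2 ratio of −0.02, while its other probe sets were at 0.22 and 0.44.

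The stress sensors showed little difference at the mRNA level, as far as they could be read. Eif2ak3 (PERK), the kinase that slows translation, read 142 in the wild-type and 159 in the transgenic pool, a log2 ratio of 0.17. Atf6, a membrane-bound transcription factor released by cleavage, read 98.1 and 90.3, a log2 ratio of −0.12. Ern1 (IRE1α), the endonuclease that splices Xbp1 mRNA, read 14.3 and 14.2 by its brightest probe set, under the floor in both pools. These sensors are activated by cleavage or phosphorylation, which these intensities do not measure.

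Among the stress transcription factors the reading was uneven. Atf4, the factor whose translation rises under PERK signalling, read 315 in the wild-type and 471 in the transgenic pool by its brightest probe set (1448135_at), 1.49-fold higher, just short of 1.5-fold. Its other measured probe set (1438992_x_at) read 101 and 78.4, a log2 ratio of −0.36, so the direction for Atf4 depends on the probe set. Xbp1, the factor spliced by IRE1, read 1056 and 1110, a log2 ratio of 0.07, and its other 3 probe sets ran from −0.41 to 0.12. Ddit3 (CHOP), a factor of prolonged ER stress, read 77.8 and 69.5, a log2 ratio of −0.16. Trib3, a known target of ATF4 and CHOP, read 8.05 and 12.9 by its brightest probe set, under the floor in both pools, and no fold is given. Its other probe set (1426065_a_at) read 12.1 in the wild-type and 7.05 in the transgenic pool, also under the floor.

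**Figure D4:**
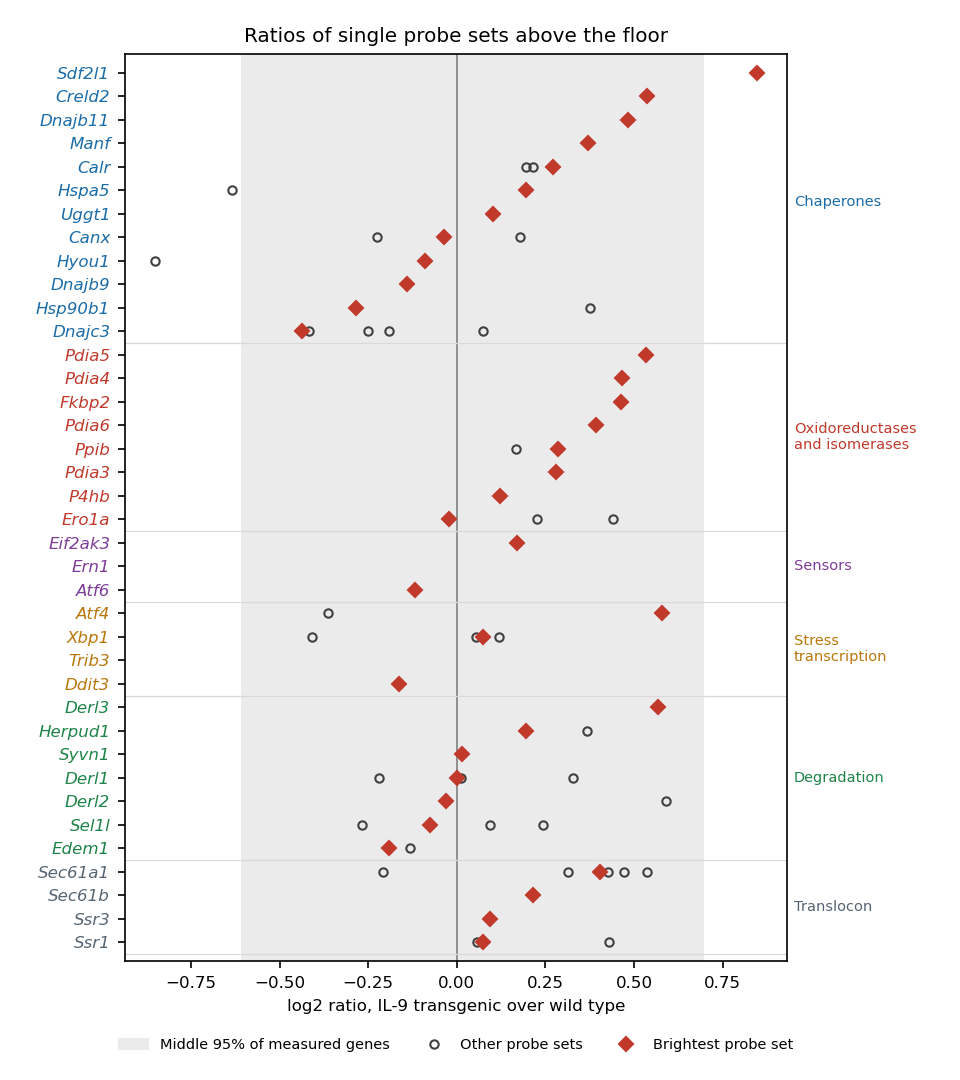
Log2 ratio of the transgenic over the wild-type pool for each single probe set above the floor on at least 1 array, by gene and role (red diamonds, brightest probe set; open circles, other probe sets; grey band, the middle 95% of measured genes, from −0.61 to 0.70). The probe sets of Hspa5, Hsp90b1, Atf4 and Derl2 lie on both sides of 0, Sdf2l1 lies above the band, and 1 probe set each of Hyou1 (−0.85) and Hspa5 (−0.63) lies below it.

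ER-associated degradation genes had a median log2 ratio of 0.00 over 7 genes, 4 of them positive (57.1%, against 56.0% of all measured genes). Derl3, a derlin of the retrotranslocation channel that is typical of ER-rich secretory cells, read 31.6 in the wild-type and 46.9 in the transgenic pool, 1.48-fold higher, at a low intensity near the floor. Herpud1, a stress-induced membrane adaptor of the degradation complex, read 406 and 466, a log2 ratio of 0.20, and 0.37 by the other probe set. Edem1, a lectin that delivers misfolded glycoproteins for degradation, read 268 and 235, a log2 ratio of −0.19, and −0.13 by the other probe set. Herpud1 and Edem1, both known to be induced by ER stress, thus had opposite signs, each by both of its probe sets. The core ubiquitin ligase Syvn1 read 67.6 and 68.3, and its partner Sel1l 150 and 142 by its brightest probe set. The 4 probe sets of Sel1l had log2 ratios from −0.27 to 0.24. The derlins Derl1 and Derl2 read 434 and 434, and 204 and 200, by their brightest probe sets. The 4 probe sets of Derl1 had log2 ratios from −0.22 to 0.33, and a dimmer probe set of Derl2 was at 0.59.

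All 4 translocon genes, which thread nascent chains into the ER, had positive ratios, where 56.0% of all measured genes did. Their median was 0.15 on the log2 scale. Sec61a1, the channel-forming subunit, read 530 in the wild-type and 701 in the transgenic pool, 1.32-fold higher, and 5 of its 6 probe sets were positive, with a range from −0.21 to 0.54. Sec61b, a small subunit of the channel, read 647 and 751, a log2 ratio of 0.22. The translocon-associated proteins Ssr3 and Ssr1 read 537 and 573, and 430 and 452, with log2 ratios of 0.09 and 0.07. By brightest probe set, only Sec61a1 of the 4 passed 1.2-fold upward, where 19.8% of measured genes did. A dimmer probe set of Ssr1 (1417764_at) read 159 and 215, 1.35-fold higher.

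Probe sets of the same gene often disagreed, which bounds how firmly single ratios can be read. Of 81 probe sets for the 38 genes, 70 were above the floor on at least 1 array and 47 of those had positive ratios (67.1%), against 53.6% of all measured probe sets with 1 gene symbol. Among the 17 genes with several measured probe sets, 6 kept 1 sign and 11 had both signs. Without those 11 genes, a choice made once the values were known, the median log2 ratio of the remaining 25 was 0.22, and 20 were positive. Genes with a single measured probe set could not be dropped by this rule, and small ratios are the likeliest to be dropped. The rule was not applied to all measured genes, so no conclusion is drawn from that median.

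Related genes outside the 38 were described in 6 lists of ER folding, degradation, translocation, ER-to-Golgi traffic, sensing and integrated stress response targets. Of 172 measured genes in these lists, 120 had positive ratios (69.8%, against 56.0% of all measured genes), and the median log2 ratio was 0.11. At 1.5-fold, 9 passed upward (5.23%) and 0 downward, against 4.09% and 2.85%. The list medians ran from 0.05 for traffic to 0.17 for other degradation genes, against 0.04 over all measured genes.

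Kdelr3, a receptor that returns escaped chaperones from the Golgi to the ER, stood above the rest at 42.7 in the wild-type and 103 in the transgenic pool, 2.41-fold higher. Its relatives Kdelr1 and Kdelr2, chosen after their values were seen, had log2 ratios of −0.07 and −0.10 by their brightest probe sets, and another probe set of Kdelr2 was at 0.33. In the same traffic list Ergic1, a membrane protein of the ER-Golgi intermediate compartment, was at 0.58 by its brightest probe set, with another of its probe sets at −0.90. In the folding list, Sil1, a nucleotide exchange factor of BiP, read 91.1 and 144, and Txndc5, an oxidoreductase abundant in plasma cells, read 318 and 502, each 1.58-fold higher; Txndc11, an oxidoreductase linked to degradation, had a log2 ratio of 0.58. Among degradation genes Tmem129, a ubiquitin ligase, was 1.70-fold higher and the mannosidase gene Man1b1 1.51-fold. Selenos, a selenoprotein of the retrotranslocation complex, was 1.42-fold higher by its brightest probe set. The log2 ratios of its 3 measured probe sets ran from −0.06 to 0.50. Kdelr3, Sil1, Txndc11, Tmem129 and Man1b1 each rest on a single measured probe set.

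Targets of the integrated stress response, the ATF4 branch, had a median log2 ratio of 0.13 over 29 measured genes, 22 of them positive (75.9%, against 56.0% of all measured genes). Atf3, a stress-induced factor, read 68.1 in the wild-type and 147 in the transgenic pool, 2.16-fold higher. Jdp2, a related factor, was 1.54-fold higher, and the alanine tRNA synthetase gene Aars had log2 ratios of 0.59 by its brightest probe set and 0.17 by another. Atf3 and Jdp2 each rest on a single measured probe set. In this list 7 genes were negative, the lowest Psat1 at −0.50. A further 5, among them Chac1 and Slc7a11, were below the floor in both pools. Of the translocation genes the signal peptidase subunit Spcs3 had a ratio of 0.42, the highest in that list. In that list 0 of 30 reached 1.5-fold, where 4.09% of measured genes did upward and 2.85% downward. Among other sensors, Creb3l4, an ER-bound transcription factor, was at 0.49 and Traf2, an adaptor of IRE1, at 0.48.

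Markers of several cell types differed between the pools. Of all 8346 measured genes, 4673 (56.0%) had positive and 3673 negative ratios, and 0.767% were at least 2-fold higher. Goblet cell genes were positive in 13 of 14 measured members, with a median log2 ratio of 0.44 and a summed intensity of 23469 in the wild-type and 30413 in the transgenic pool. Within that list Agr2, a disulfide isomerase that folds mucin, had a ratio of 0.23 by its brightest probe set and −0.92 by the other, and Ern2, the IRE1 form of mucosal epithelium, 0.40. Plasma cell genes were positive in 9 of 10, with a median of 0.38 and a summed intensity of 7094 and 8952. Within that list the immunoglobulin genes differed widely: Ighm read 62.6 in the wild-type and 570.4 in the transgenic pool and Iglv1 66.2 and 490.1, while Igha read 3820 and 4476 and Jchain, the joining chain of secreted antibodies, 2529 and 2703. The 7 measured probe sets of Ighm had log2 ratios from 0.23 to 4.29. Pou2af1, a coactivator of B lineage cells, read 52.3 and 116. By brightest probe set, the remaining listed genes had smaller ratios: Sdc1 was at −0.06, Ell2 at 0.04, Prdm1 at 0.35 and Fkbp11 at 0.55. Irf4 was at 0.41 or more, its wild-type reading being under the floor, and Tnfrsf17 was below the floor in both pools. Exocrine pancreas genes went the other way: 16 of 17 measured members were negative, and the median was −6.85. That median is a bound, since 12 of the 17, among them Cpa1, Cel and Ctrb1, were below the floor in the transgenic pool. Sycn read 3244 and 3107, and Spink1 2119 and 2406. Mast cell genes were positive in 8 of 10 measured members, 5 of them at least 2-fold higher, and their summed intensity was 304 in the wild-type and 3425 in the transgenic pool. The mast cell protease genes Mcpt1 and Mcpt2 were below the floor in wild type and read 1297 and 1472 in the transgenic pool, and the mast cell genes Ms4a2 and Hdc were below it in both. B cell genes were positive in 5 of 5, with a median of 1.14 and a summed intensity of 163 and 354, and smooth muscle genes had a median of −0.01 over 8. Agr2, Ern2, Creb3l1 and Creb3l4 of the goblet cell list and Fkbp11 of the plasma cell list are also in the related ER lists. Those lists are therefore not independent readings. The part of these cell types in the ER gene ratios was not tested. Because each genotype is 1 pool, genotype, pool and array cannot be told apart for any ratio given here.

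**Figure D5:**
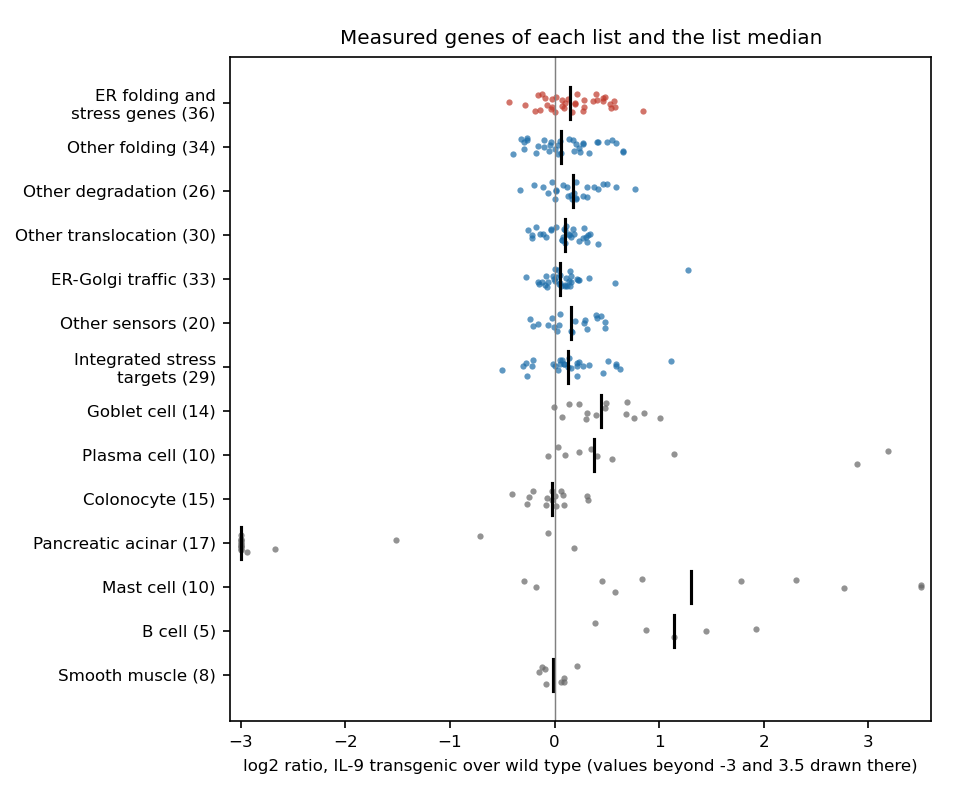
Log2 ratio of the transgenic over the wild-type pool for each measured gene of the ER list (red), 6 related lists (blue) and 7 cell type marker lists (grey), with the list median as a black line and the number of genes in parentheses; values under −3 or over 3.5 are drawn at those ends. The ER genes centre on 0.15, goblet cell genes on 0.44, colonocyte genes on −0.02, and the median of pancreatic genes, −6.85, lies beyond the axis.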

How the data were processed

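RNA of distal colon from 4 mice was pooled per genotype and hybridised to 1 Affymetrix array each. The authors deposited 1 intensity per probe set and array. Per the submitters' processing notes these came from MAS5; the sources used here do not state a version. MAS5 subtracts background and mismatch signal, so ratios of low values are unstable. With 2% trimmed at each end, the mean intensity was 100.0 on both arrays, as global scaling leaves it, and no further scaling was applied.

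Of 22690 probe sets, 64 were controls, 20380 had 1 symbol, 691 several and 1555 none; only single-symbol probe sets were named. List genes missing under their symbol were matched by RefSeq synonym and gene ID. The brightest probe set by mean intensity stood for a gene. Intensities were floored at 19.8 and log2 ratios taken. Thresholds were 2-fold and 1.5-fold, with 1.3-fold and 1.2-fold added later. With 1 array a group, no test was run, and the number of arrays limits the precision. The genes named were all 38 members and, in each related list, up to 3 with the largest ratios in size, of which not all are reported, besides genes described as markers. The members and lists were chosen with earlier results of these data known. Scripts used Python 3.11.15, pandas 2.3.3, numpy 2.4.6 and statsmodels 0.14.6, and were tested on simulated data. The alternatives were median scaling, quantile normalization, loess (span 0.3), lower and higher floors (20th and 60th percentiles), no floor with a pseudocount of 0.735, the mean of probe sets, and probe sets without a suffix in their ID.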

Additional observations from a re-analysis of the deposited data

How the results depend on the processing

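The median log2 ratio of the 36 measured ER genes was 0.15 and ran from 0.12 with loess to 0.19 without probe sets of suffixed ID over the 8 alternatives, above the median of all measured genes by 0.10 to 0.15 in each. The share of positive members ran from 63.9% (23 of 36) with loess to 72.2% (26 of 36) with the mean of probe sets. The count at least 1.5-fold higher, 1 as reported (Sdf2l1), was 2 under the lower floor (20th percentile) and 2 under a pseudocount without floor, where Trib3 joined, and 0 under the higher floor (60th percentile). The Trib3 call rests on its brightest probe set, under the main floor on both arrays. Its other probe set, also under the main floor, read lower in the transgenic pool. The count at least 1.5-fold lower, 0 as reported, was 1 without probe sets of suffixed ID, where Hyou1 was read by its dimmer probe set. Of 36 single genes, 28 kept their sign under every alternative run. Only the 17 genes with several measured probe sets could change under the 2 probe-set alternatives, so the signs kept there by other genes were fixed by construction. The sign changed in Canx, Derl1, Derl2, Ero1a, Hsp90b1, Hspa5, Syvn1 and Xbp1. With the mean of probe sets Hspa5 was at −0.22 and Hsp90b1 at 0.05. Single genes moved by more than the probe-set SD of 0.28 in 8 of the 66 values from the 2 probe-set alternatives and in none of the scaling and floor values, most of which could move little by construction. Among the 66, values of genes with a single measured probe set could not move. Role medians ran from 0.07 (mean of probe sets) to 0.19 for chaperones, 0.31 to 0.39 for oxidoreductases, −0.02 to 0.03 for sensors, −0.16 to 0.33 for stress transcription factors, −0.03 to 0.03 for degradation and 0.13 to 0.22 for the translocon. The median of genes with no promoter match, 0.11, was 0.18 with the mean of probe sets. That of genes with a match, 0.20, was 0.23 in the same setting and ran from 0.18 to 0.24 over the alternatives. No paired analysis was possible because each group has 1 array.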

Other observations

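Genes outside the 38 that hold an ER stress element or ER stress element II in their RefSeq promoter window numbered 38, of which 15 were on the array and 10 measured. Of these 10, 7 had positive ratios, with a median log2 ratio of 0.22 and a range from −0.29 to 0.62, and over all 21 measured genes with either element 15 were positive (71.4%), with a median of 0.21. The 6764 measured genes with a window and neither element had a median of 0.04, and 56.1% of them were positive. Adcy3, an adenylate cyclase gene, had the largest ratio, at least 0.62, a bound because its wild-type reading was under the floor, and Ero1b, the second ER oxidase, the lowest, −0.29. Krtcap2, a subunit of the oligosaccharyltransferase, and Nucb1, a calcium-binding protein of the Golgi, were at 0.28 and 0.27, and the mannosyltransferase gene Alg12 was at −0.11. The 5 genes named here were chosen after their values were seen, and the difference between the groups was not tested.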
